A study of Mus musculus with 24 samples.

Results

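Axon guidance ligands and receptors were followed here as the genes whose annotated symbol belongs to the Eph receptors, ephrins, semaphorins, plexins, neuropilins, Robos, Slits, netrins or Unc5 receptors, together with Neo1 and Draxin. The arrays held 68 such genes, with 105 probes, among 16593 annotated genes. They were 13 Eph receptors, 8 ephrins, 18 semaphorins, 8 plexins, 2 neuropilins, 3 Slits, 3 Robos, 6 netrins, 6 netrin receptors and Draxin. Unc5cl was counted with the netrin receptors because its symbol matches, not because it is known to bind netrin. Dcc was not analysed here, and neither were genes such as Ephb2, Plxnb2 and Robo3, which were not found by symbol in the annotation used. Each gene was represented by its probe with the highest mean signal, and 21 genes had more than 1 probe.

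Guidance ligands are secreted or membrane-bound proteins that attract or repel growing axons and migrating cells, and their receptors turn the contact into changes of the cytoskeleton. Ephrins signal through Eph receptor tyrosine kinases at points where cells touch. Semaphorins bind plexins, in part with neuropilins as co-receptors, Slits bind Robos, and netrins bind Dcc, neogenin (Neo1) and the Unc5 receptors. Glial cells also use these families: astrocytes and oligodendrocyte progenitors both carry receptors of them and make ligands that act on axons.

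All cultures were of glial progenitor cells (GPCs) that had been made from embryonic stem cells of the mouse, with 1 conditional and 1 deleted allele of Dgcr8 (flox/delta), a gene needed to cut primary microRNA transcripts. The 6 groups were differentiated flox/delta GPCs (3 arrays), undifferentiated knockout (KO) GPCs (3), undifferentiated flox/delta GPCs (3), KO GPCs given let-7 (3), KO GPCs given miR-125 (3) and KO GPCs given a mock treatment (4). Cells were grown with EGF and FGF. For differentiation both were withdrawn, and B27 and 1% serum were added. Knockout cells (delta/delta) had received tamoxifen at 1 uM for 16 h and at 100 nM for 16 h, which the labels list for knockout arrays only. The labels also call the undifferentiated KO arrays mock, and name no mock treatment for the flox/delta arrays. Tamoxifen, the mock treatment and the loss of Dgcr8 therefore cannot be told apart in the knockout comparison. The flox/delta controls already lacked 1 copy of Dgcr8, and the labels name neither the Cre driver nor the let-7 and miR-125 family members given. Separate tamoxifen treatments gave the let-7, miR-125 and mock replicates, per the labels. For the other replicates no source is stated, and their p-values then rest on a spread between samples that may be technical. The first 3 of these groups were in hybridization 1, and the others in hybridizations 2 and 3. Mock replicate 1 was measured in both hybridizations 2 and 3, so the 4 mock arrays may hold only 3 RNA samples. Raw signals of its 2 arrays had a rank correlation of 0.902 across probes, against 0.897 to 0.900 between mock arrays of different replicates.

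The 19 arrays had a mean raw signal of 298 to 474 in hybridization 1, 1429 to 1523 in hybridization 2 and 756 to 868 in hybridization 3, and 11788 to 13129 of 25697 probes were detected. Their number, and not a read depth, limits the precision. Dgcr8 itself was lower in KO than in flox/delta undifferentiated GPCs by a log2 difference of -0.52 ± 0.12 (SE, limma, adjusted p = 0.00512), with no information on whether its probe lies in the deleted part. Of 9 astrocyte markers measured, all 9 were tested in differentiation and 7 were higher, and their summed signal was 44095 to 48685 in differentiated against 21802 to 23138 in undifferentiated flox/delta arrays. Neither 5 microglial nor 6 endothelial markers were detected on any of the flox/delta arrays, and in undifferentiated KO arrays the only ones detected were the endothelial Tek and Emcn. Gfap, a defining astrocyte marker, was detected in differentiated cells and on no undifferentiated or KO array. Each array measured RNA from a whole culture, in which fewer cells of a type and less RNA per cell cannot be told apart.

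Values below are log2 signals after background correction and quantile normalization, and each probe is compared only with itself. A probe was detected where its detection p-value was under 0.05. Of the 68 guidance genes, 54 were detected on at least 1 of 19 arrays and 19 on all of them. The 19 were Efna4, Efna5, Efnb1, Ephb1, Ephb4, Neo1, Nrp1, Ntn3, Ntn4, Plxna2, Plxnb1, Robo1, Sema3a, Sema4b, Sema4g, Sema5a, Sema6a, Sema6d and Slit2. The 14 genes detected on no array were Efna2, Epha1, Epha2, Epha6, Ntn1, Plxna1, Plxna4, Sema3c, Sema3d, Sema3e, Sema3g, Slit3, Unc5cl and Unc5d. A gene was tested in a comparison when its probe was detected on at least 3 of the arrays compared, so a gene high in 1 group alone entered through that group.

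Differentiation of flox/delta GPCs went with changes in both directions among the Eph receptors, semaphorins, plexins and netrin receptors. Differentiated cells had more RNA for the receptors Ephb1, Epha3, Unc5c and Plxnb1 and for 7 semaphorins, and less for Ntn4, Epha5, Draxin, Sema3a, Sema4b and Plxna2. Of 39 guidance genes tested, 13 were higher and 10 lower in differentiated cells (limma, Benjamini-Hochberg adjusted p under 0.05 over all 9382 genes tested). Among all genes tested 55.2% passed, 28% higher and 27.2% lower, so the guidance genes, at 59%, were near that background. Their median log2 difference was 0.07, against -0.01 for all genes.

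Ephb1, a receptor for B-type ephrins, had a log2 signal of 10.11, 10.04 and 10.02 in differentiated arrays, against 7.88, 7.73 and 7.61 in undifferentiated arrays. The groups did not overlap, and the log2 difference was 2.32 ± 0.10 (SE, n = 3 each, limma adjusted p = 1.51e-07), or 4.98-fold. Sema4a, a transmembrane semaphorin, had 6.99, 6.68 and 7.06 in differentiated arrays, against 4.60, 4.79 and 4.95 in undifferentiated arrays, of which only replicate 3 was detected. All differentiated arrays lay above all undifferentiated ones, with a log2 difference of 2.13 ± 0.14 (adjusted p = 1.81e-06). Unc5c, a netrin receptor known for repulsion, had 6.48, 6.57 and 6.59 in differentiated arrays, against 4.48, 4.39 and 4.44 in undifferentiated arrays, none of which was above background. It was at least 3.50-fold higher in differentiated cells, measured against the lowest signal above background (means 6.55 and 4.43, adjusted p = 1.31e-07). Epha3, a receptor for A-type ephrins, had 6.90, 6.34 and 6.22 in differentiated arrays, against 4.66, 4.44 and 4.38 in undifferentiated arrays, again all below background. It was at least 3.36-fold higher (means 6.49 and 4.50, adjusted p = 1.51e-05), while a second Epha3 probe near background differed by 0.20.

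Ntn4, a laminin-related netrin, had the largest fall, with 5.14, 5.32 and 5.01 in differentiated arrays against 7.13, 7.21 and 7.39 in undifferentiated arrays. The log2 difference was -2.08 ± 0.12 (adjusted p = 7.79e-07), with no overlap. Epha5, another receptor for A-type ephrins, had 5.65, 5.61 and 5.61 in differentiated arrays against 7.38, 7.15 and 7.07 in undifferentiated arrays (log2 difference -1.58 ± 0.11, adjusted p = 2.58e-06). The A-class Eph receptors Epha3 and Epha5 thus moved in opposite directions. Draxin, a secreted repellent of commissural axons that binds netrin receptors, had 8.20, 7.94 and 8.05 in differentiated arrays, against 10.02, 9.29 and 9.25 in undifferentiated arrays (log2 difference -1.46 ± 0.20, adjusted p = 2.24e-04), and its 2 weaker probes differed by -0.87 and -0.30. Sema3a, a secreted ligand of neuropilin-1, had 6.51, 6.35 and 6.39 in differentiated arrays, against 7.64, 7.43 and 7.63 in undifferentiated arrays. Its log2 difference was -1.15 ± 0.10 (adjusted p = 1.68e-05), and neither Draxin nor Sema3a overlapped between the groups.

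**Figure D1:**
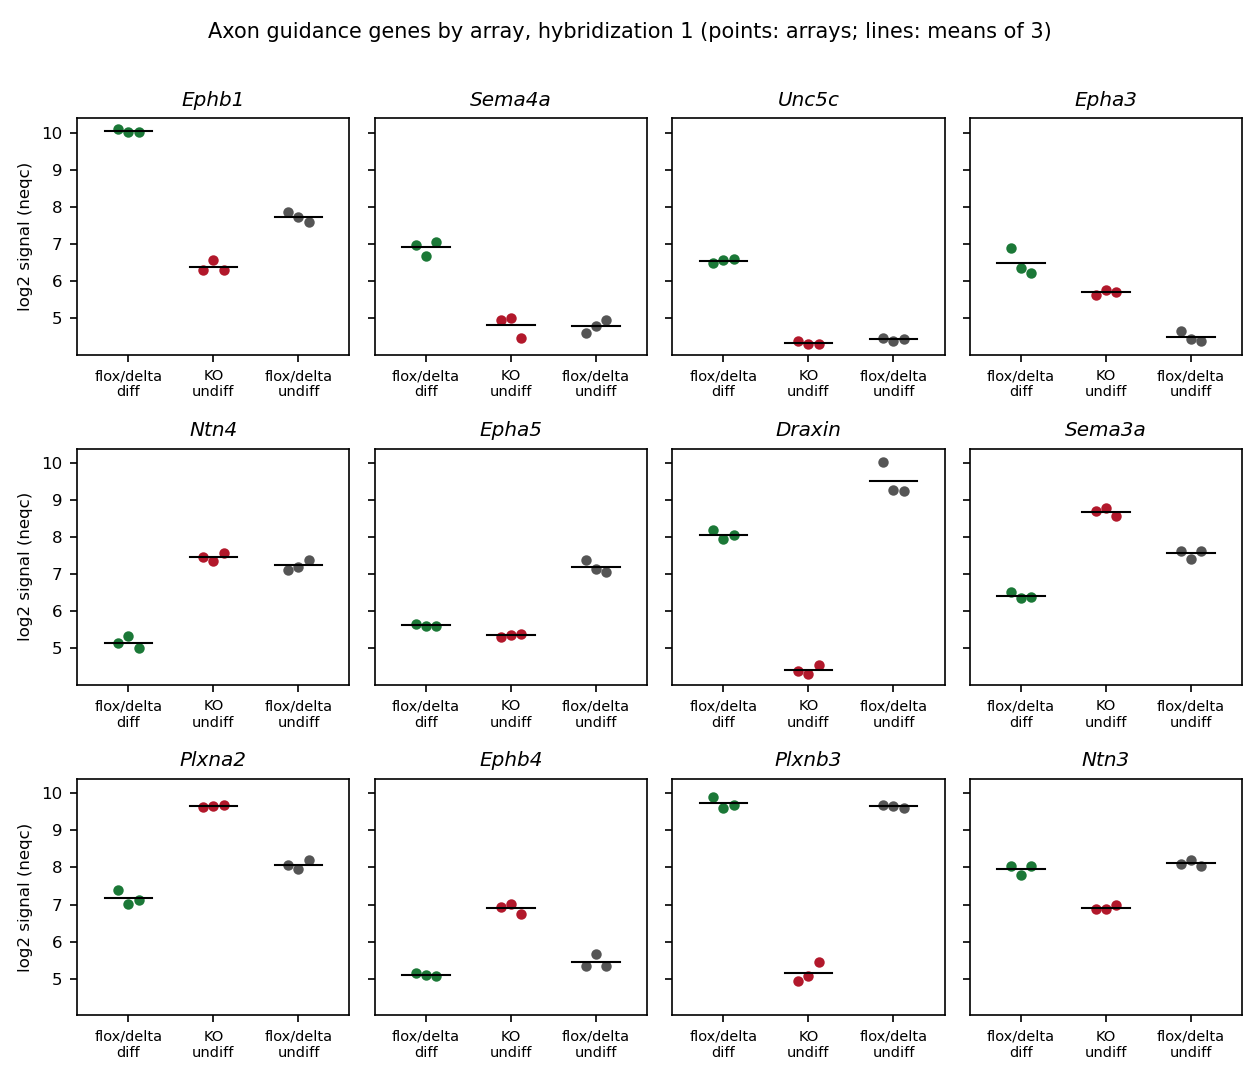
Log2 signal (vertical axis) of 12 axon guidance genes on the 9 arrays of hybridization 1, by group (horizontal axis); each point is 1 array and each line the mean of 3. Ephb1 is highest in differentiated flox/delta arrays and lowest in KO arrays, and Draxin and Plxnb3 are lowest in KO arrays.

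Of 11 semaphorins tested 7 were higher and 2 lower, where 28% and 27.2% of all genes were, and their median log2 difference was 0.66, against -0.01 for all genes. Besides Sema4a, the higher ones were Sema3f, a ligand of neuropilin-2 (log2 difference 1.64), Sema6d, a ligand of A-type plexins (1.36), Sema5a, a ligand of Plxnb3 (1.16), Sema6b (0.67), the GPI-anchored Sema7a (0.66) and Sema4g (0.56). Sema4b was lower, at -1.05, beside Sema3a. Second probes of Sema3f and Sema5a had log2 differences of 1.04 and 1.35, and the 2 other probes of Sema6d had 0.84 and 0.86, while those of Sema6b had 0.06 and 0.48. Plexins moved in both directions: Plxnb1, a receptor for Sema4d, by 1.48, Plxnd1, a receptor for Sema3e, by 0.80 (at least 1.29-fold), and Plxna2, a receptor for class 3 and class 6 semaphorins, by -0.89. Neo1, the receptor for netrins and repulsive guidance molecules, was higher by 0.63.

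Smaller falls were measured for Slit2, a ligand of Robo receptors (-0.86, adjusted p = 0.0162), for the ephrin Efna4 (-0.60, adjusted p = 0.0138), for the netrin receptor Unc5b (-0.41, adjusted p = 0.0325, with overlapping groups) and for Ephb4, a receptor for ephrin-B2 (-0.34, adjusted p = 0.0318). Each of these 4 calls was lost when a single array was left out. The Slit receptor Robo1 did not pass and differed by 0.19 ± 0.09 (adjusted p = 0.128), and Nrp1, the co-receptor of Sema3a, by 0.24 ± 0.17 (adjusted p = 0.260). Plxnb3 had 9.91, 9.60 and 9.69 in differentiated arrays, against 9.70, 9.67 and 9.62 in undifferentiated arrays, so its groups overlapped (log2 difference 0.07 ± 0.11, adjusted p = 0.607). Oligodendrocyte lineage markers were also higher in differentiated cells, 5 of 8 tested, with 1 lower, and their summed signal was 18205 to 19948 against 12133 to 12550. Of 6 neuronal markers tested 3 were higher. The part of these cell types in the guidance gene differences was not tested.

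Among the guidance genes tested, 2 differed most between undifferentiated KO and undifferentiated flox/delta GPCs. Draxin and Plxnb3 had strong signal in flox/delta cells, while in KO cells the strongest Draxin probe was below detection and Plxnb3 just above it. Epha5, Ephb1 and Ntn3 also had less RNA in KO cells, while Plxna2, Ephb4, Epha3, Sema3a, Sema4b and the 3 B-type ephrins had more. Of 37 guidance genes tested, 10 were higher and 8 lower in KO cells (limma, adjusted p under 0.05 over all 9107 genes). Among all genes 54.8% passed, 28.3% higher and 26.6% lower, and the guidance genes, at 48.6%, were again near the background. Their median log2 difference was 0.08, against 0.02 for all genes. The undifferentiated flox/delta arrays served as controls in both the differentiation and the knockout comparison.

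Draxin had a log2 signal of 4.39, 4.31 and 4.56 in KO arrays, none of them above background, against 10.02, 9.29 and 9.25 in flox/delta arrays. The probe was at least 27.1-fold lower in KO cells (means 4.42 and 9.52, limma adjusted p = 1.50e-07). Of the other Draxin probes, both weaker, 1 had a log2 difference of -1.10 and the other, still detected on 2 of 3 KO arrays, -0.24. Plxnb3, a receptor for Sema5a, had 4.94, 5.06 and 5.44 in KO arrays, against 9.70, 9.67 and 9.62 in flox/delta arrays. The groups were far apart, with a log2 difference of -4.51 ± 0.13 (adjusted p = 3.60e-08), or 22.8-fold. Epha5 had 5.31, 5.36 and 5.38 in KO arrays, against 7.38, 7.15 and 7.07 in flox/delta arrays (log2 difference -1.85 ± 0.10, adjusted p = 1.23e-06). Ephb1 had 6.29, 6.57 and 6.31 in KO arrays, against 7.88, 7.73 and 7.61 in flox/delta arrays (log2 difference -1.35 ± 0.12, adjusted p = 1.58e-05). No KO array reached the lowest flox/delta array for any of these 4 genes.

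Plxna2 had 9.63, 9.65 and 9.69 in KO arrays, against 8.06, 7.97 and 8.19 in flox/delta arrays (log2 difference 1.58 ± 0.09, adjusted p = 1.60e-06). Ephb4 had 6.93, 7.01 and 6.74 in KO arrays, against 5.34, 5.67 and 5.33 in flox/delta arrays (log2 difference 1.45 ± 0.12, adjusted p = 1.60e-05). All KO arrays of both receptors lay above all flox/delta arrays. Epha3 had 5.64, 5.75 and 5.72 in KO arrays, against 4.66, 4.44 and 4.38 in flox/delta arrays, which were below background. It was at least 1.95-fold higher in KO cells (means 5.70 and 4.50, adjusted p = 1.51e-05). Sema3a had 8.72, 8.78 and 8.57 in KO arrays, against 7.64, 7.43 and 7.63 in flox/delta arrays (log2 difference 1.13 ± 0.10, adjusted p = 2.30e-05), again without overlap.

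**Figure D2:**
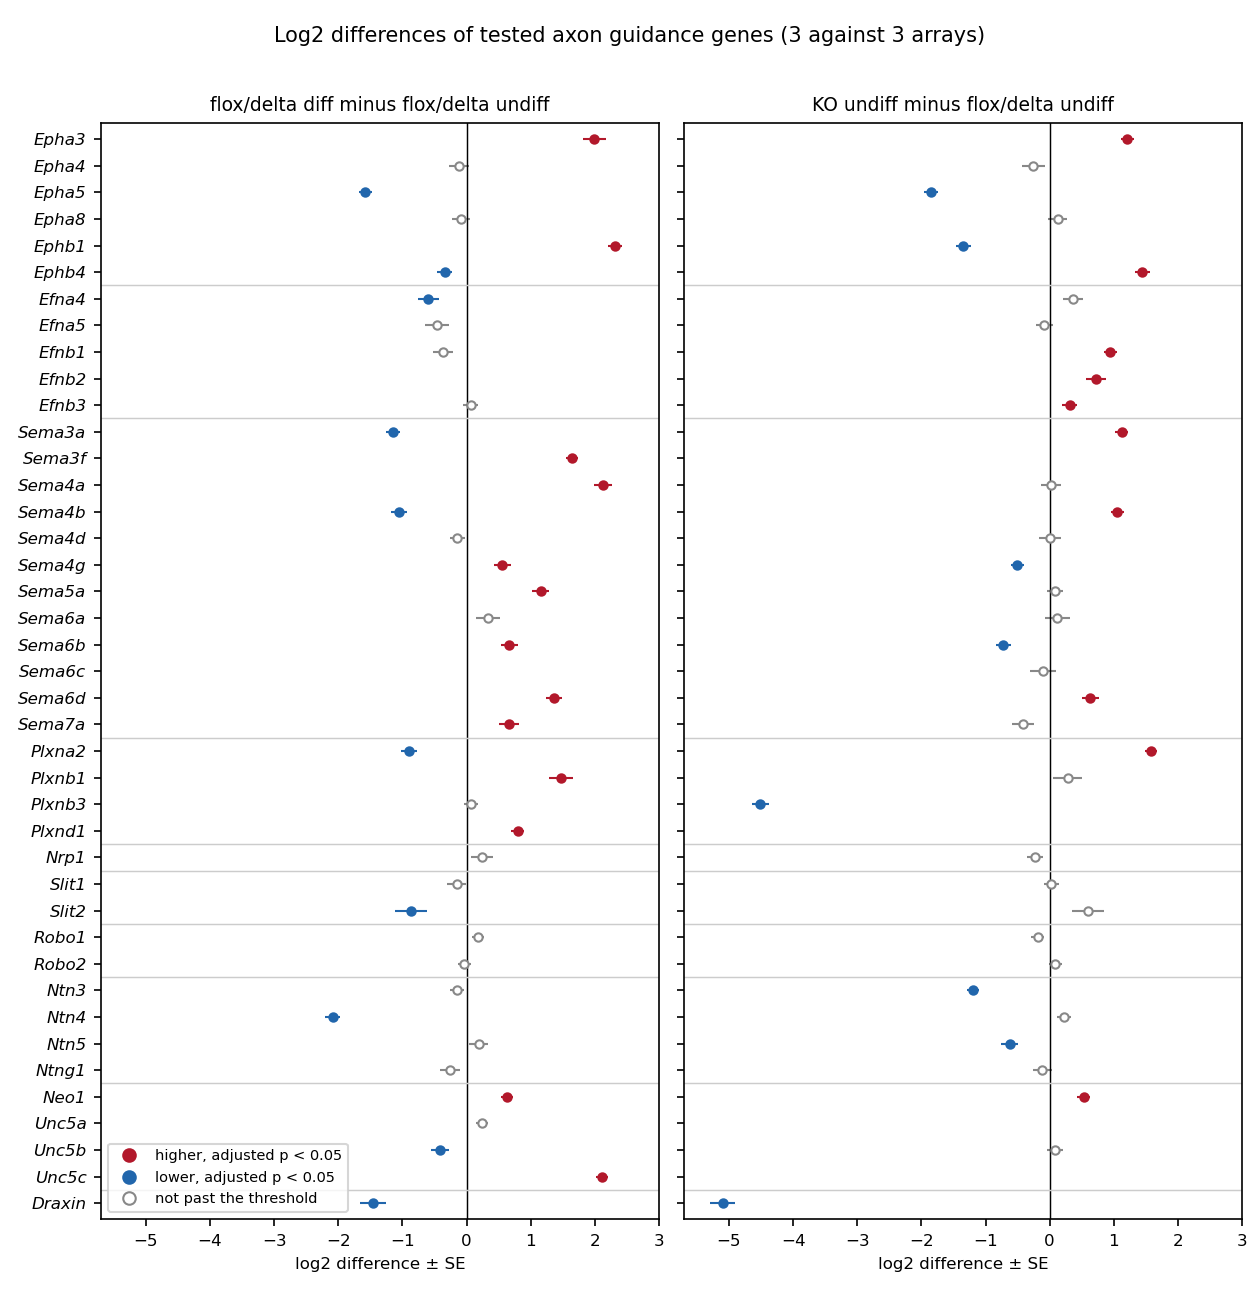
Log2 difference with its SE (horizontal axis) of each tested guidance gene, grouped by family (vertical axis), for differentiated minus undifferentiated flox/delta GPCs (left) and KO minus flox/delta undifferentiated GPCs (right). Filled points passed adjusted p under 0.05; Draxin and Plxnb3 stand apart on the right at -5.10 and -4.51, and both panels share their control arrays.

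Of 5 ephrins tested 3 passed, all of them higher in KO cells, where 28.3% of all genes were higher. Efnb1 was higher by 0.94, Efnb2, the main ligand of Ephb4, by 0.72 (at least 1.36-fold, since no flox/delta array was above background) and Efnb3 by 0.31 (adjusted p = 0.0428). The Efnb3 call was lost when any 1 of 4 arrays was left out. Efna4, at 0.36 (0.52 on its second probe), and Efna5, at -0.09, did not pass. Among semaphorins 3 of 11 tested were higher and 2 lower, where 28.3% and 26.6% of all genes were. The higher ones were Sema3a, Sema4b at 1.05 and Sema6d at 0.64, and the lower ones Sema6b at -0.72 (at least 1.31-fold) and Sema4g at -0.50. Neo1 was higher by 0.53. Of 4 netrins tested, Ntn3 had -1.20, with -1.11 on its second probe, and Ntn5 had -0.62 (at least 1.18-fold lower). Slit2, at 0.60 ± 0.24 (adjusted p = 0.0653), Nrp1, at -0.23 (-0.34 on its second probe), and Robo1, at -0.18, did not pass.

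Several genes passed in both comparisons, which share their controls. With the differentiation value first and the knockout value second, the log2 differences were 2.32 and -1.35 for Ephb1, -0.34 and 1.45 for Ephb4, -1.15 and 1.13 for Sema3a, -1.05 and 1.05 for Sema4b and -0.89 and 1.58 for Plxna2. They were 0.56 and -0.50 for Sema4g and 0.67 and -0.72 for Sema6b. These genes moved one way with differentiation and the other way in the knockout. The share of all genes that did so was not computed. When arrays were scaled to the median without quantiles, Sema4g and Sema6b fell short of the threshold in both comparisons, and Ephb4 in differentiation. Sema6b was below background on every KO array, so its knockout value rests on background signal there. Both values had the same sign for Epha3, at 1.99 and 1.21, Sema6d, at 1.36 and 0.64, Neo1, at 0.63 and 0.53, Epha5, at -1.58 and -1.85, and Draxin, at -1.46 and -5.10.

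Markers of other cell types moved with the knockout too. All 5 oligodendrocyte lineage markers tested were lower in KO cells. Summed signal of the 9 markers measured was 7807 to 8859 in KO against 12133 to 12550 in flox/delta arrays. Most of it was Olig1 in both groups (mean log2 signals 12.97 and 13.47). Mbp, Mog, Mag, Cldn11 and Gpr17 were not detected on any KO array. Of 7 astrocyte markers tested 5 were lower and 1 higher, with sums of 10387 to 10891 in KO against 21802 to 23138 in flox/delta arrays. All 4 neural progenitor markers tested were lower, and of 6 neuronal markers 2 were higher and 2 lower. The part of these shifts in the Draxin, Plxnb3 and other guidance gene differences was not tested.

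The 250 bases before the annotated start are shown for Draxin, Plxnb3, Plxna2 and Ephb1. Among the guidance genes tested, Draxin and Plxnb3 fell most in KO cells and Plxna2 rose most. Ephb1 had the highest difference of the guidance genes in differentiation and was lower in KO cells. The bases are from RefSeq, build GRCm38.p6, 5′ to 3′ on the gene's strand. Capitals mark matches, on either strand, to the letters CAGCTG, an E-box. They also mark CCCGCCC, known as the GC box, and the 2 other motifs searched, TTCNNNGAA, known for STAT factors, and TATAAA, the TATA box. The windows are chr4:148130699-148130948 (minus strand) for Draxin, chrX:73756853-73757102 (plus) for Plxnb3, chr9:102354694-102354943 (minus) for Ephb1 and chr1:194619579-194619828 (plus) for Plxna2.
Draxin: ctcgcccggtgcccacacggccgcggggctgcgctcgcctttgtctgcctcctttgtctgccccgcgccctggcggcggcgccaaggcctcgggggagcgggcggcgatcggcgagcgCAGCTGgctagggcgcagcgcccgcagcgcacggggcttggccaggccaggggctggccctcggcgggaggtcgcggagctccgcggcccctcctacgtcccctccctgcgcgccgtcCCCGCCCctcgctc
Plxnb3: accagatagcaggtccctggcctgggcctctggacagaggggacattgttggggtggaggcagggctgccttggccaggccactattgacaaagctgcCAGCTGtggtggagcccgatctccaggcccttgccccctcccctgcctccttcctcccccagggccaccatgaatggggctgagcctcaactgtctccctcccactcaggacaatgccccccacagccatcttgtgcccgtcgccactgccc
Ephb1: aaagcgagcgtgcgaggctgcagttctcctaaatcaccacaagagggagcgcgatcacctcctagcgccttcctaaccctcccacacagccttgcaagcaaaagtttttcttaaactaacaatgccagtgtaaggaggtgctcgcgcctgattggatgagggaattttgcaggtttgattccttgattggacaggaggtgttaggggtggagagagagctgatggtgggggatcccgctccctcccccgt
Plxna2: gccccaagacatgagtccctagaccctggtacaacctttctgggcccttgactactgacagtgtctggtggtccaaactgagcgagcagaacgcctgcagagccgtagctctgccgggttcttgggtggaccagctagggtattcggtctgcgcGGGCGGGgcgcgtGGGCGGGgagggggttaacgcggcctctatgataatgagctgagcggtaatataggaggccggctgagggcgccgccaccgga

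Draxin and Plxnb3 each held 1 CAGCTG, Draxin 1 GC box and Plxna2 2 GC boxes, and the Ephb1 window held none of the 4 motifs. A window was found by symbol for 59 of the 68 guidance genes. The GC box was present in 61% of these 59 windows, against 23.6% of the first windows of all 27025 genes listed. Their median GC content was 64.4%, against 52% for all genes. CAGCTG was present in 16.9% of the guidance windows and 12.8% of all windows, the STAT motif in 3.39% and 7.18%, and the TATA box in 3.39% and 13%. Among the 8 genes with a window that were lower in KO cells 4 held CAGCTG, and among the 9 that were higher none did, a description of these windows only.

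In knockout cells given let-7 or miR-125, no guidance gene passed the test against mock-treated cells. The question of these comparisons, as the title frames it, was how the 2 microRNAs act in the formation of astrocytes. Mature members of both families, from RefSeq build GRCm38.p6, are shown with the seed, bases 2 to 8, in capitals. The labels do not say which member was given. Of the mature microRNAs considered, 11 shared the let-7 seed and 5 the miR-125 seed. The examples lie at chr13:48538239-48538260 and chr13:48536078-48536099 (minus strand) for let-7a and let-7d, at chr17:17830817-17830840 (plus) for miR-125a and at chr9:41581940-41581961 (plus) for the Mir125b-1 copy of miR-125b.
let-7a-5p: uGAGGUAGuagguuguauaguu
let-7d-5p: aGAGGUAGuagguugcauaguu
miR-125a-5p: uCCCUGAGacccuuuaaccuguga
miR-125b-5p: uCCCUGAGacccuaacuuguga

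With let-7, 0 of 36 guidance genes tested passed, while 3 of all 9419 genes did (0.0319%, limma with a term for the hybridization). At an unadjusted p under 0.05 there were 7 of 36 (19.4%), against 18.5% of all genes. The highest was Sema6b, a transmembrane semaphorin, with 6.69, 6.52 and 6.20 in let-7 arrays, against 5.54, 5.66 and 5.29 in the mock arrays compared. The log2 difference was 0.98 ± 0.16 (adjusted p = 0.130). The fourth mock array, replicate 1 of hybridization 3, which is not part of that comparison, had 6.61 and lay within the let-7 range. Within hybridization 3 alone, where that array was a control, the difference was 0.51 ± 0.39 (adjusted p = 0.706).

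Netrins followed, with none past the threshold. Ntng1, a membrane-anchored netrin, had 6.86, 7.14 and 6.89 in let-7 arrays, against 6.02, 6.29 and 6.60 in the mock arrays compared (log2 difference 0.66 ± 0.15, adjusted p = 0.138). Ntn3 had 9.79, 9.12 and 9.18 in let-7 arrays, against 9.12, 8.72 and 8.71 in the mock arrays compared, and the groups met at 9.12 (log2 difference 0.52 ± 0.12, adjusted p = 0.137). Unc5b differed by 0.52 ± 0.26 (adjusted p = 0.341). At the low end were Robo2, a Slit receptor (-0.54 ± 0.31, adjusted p = 0.403), Sema4f (-0.52 ± 0.31, adjusted p = 0.415) and Epha3 (-0.49 ± 0.19, adjusted p = 0.253). The 5 plexins tested had values between -0.43 and -0.20, against a median of -0.01 for all genes, and none passed. Plxnc1 was detected on 0 of 3 let-7 arrays, and Plxnd1 and Plxnb3 on 1 of 3 each, so these values lie near background.

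With miR-125, 0 of 37 guidance genes tested passed, as did 0 of all 9308 genes (0%, limma within hybridization 3). At an unadjusted p under 0.05 there were 6 of 37 (16.2%), against 19.6% of all genes. Epha3 had 7.18, 7.64 and 7.06 in miR-125 arrays, against 7.97, 8.59, 8.67 and 8.46 in mock arrays, the first of hybridization 2 and not in the comparison. No miR-125 array reached a mock array, and the log2 difference was -1.28 ± 0.18 (adjusted p = 0.108). Under 3 other ways of normalizing it passed, with smaller differences of -0.89, -0.78 and -0.74 (adjusted p = 0.0376, 0.0389 and 0.0361), and the second Epha3 probe had -0.24.

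Plxnb1 differed by -0.90 ± 0.37 (adjusted p = 0.245) and Nrp1 by -0.66 ± 0.19 (adjusted p = 0.140), a difference of -0.64 on its second probe. Nrp1 had 9.73, 9.74 and 10.11 in miR-125 arrays, against 10.84, 10.41 and 10.31 in the mock arrays compared, with no overlap. Its ligand Sema3a differed by -0.45 ± 0.16 (adjusted p = 0.188), with 9.69, 9.59 and 9.78 in miR-125 arrays against 10.41, 9.97 and 10.02 in the mock arrays compared. Ntn5 had 5.86, 6.23 and 5.78 in miR-125 arrays, against 5.58, 5.06 and 5.27 in the mock arrays compared (log2 difference 0.65 ± 0.19, adjusted p = 0.144). Ephb1 had the highest difference, with 10.29, 8.33 and 8.90 in miR-125 arrays of replicates 1 to 3, against 9.71, 7.12 and 8.02 in the mock arrays of the same replicates. The groups overlapped, while each miR-125 array was higher than the mock array of its own tamoxifen treatment. The log2 difference was 0.89 ± 0.74 (adjusted p = 0.556), and 0.89 ± 0.15 with the treatment as a block (adjusted p = 0.0607). The let-7 and miR-125 comparisons share mock replicates 2 and 3. Summed signal of 7 mesenchymal and smooth muscle markers was 4188 to 7470 in miR-125 arrays, 449 to 1761 in let-7 arrays and 1026 to 3191 in mock arrays, without overlap between miR-125 and the others. Acta2 made up most of it in miR-125 arrays (mean log2 signal 12.33). Tagln, Col1a1, Pdgfrb and Cnn1 were detected on no miR-125 array, and Col3a1 was lower than in mock arrays (log2 difference -0.62, not past the threshold). Summed signal of 9 oligodendrocyte lineage markers was 21867 to 26497 in miR-125 arrays, 16535 to 19653 in let-7 arrays and 16189 to 19812 in mock arrays. Most of it was Olig1, with a mean log2 signal of 14.54 in miR-125 arrays and a difference of 0.34 against mock (limma adjusted p = 0.201). Mbp, Mog, Mag, Cldn11 and Gpr17 were detected on no miR-125 array. No marker of either list passed in the microRNA comparisons. Of the neuronal markers, Rbfox3 was lower with let-7 than with miR-125 (log2 difference -1.58 ± 0.29, adjusted p = 0.0449), while the summed signal of 11 such markers overlapped between the groups. Whether these marker values bear on the guidance gene values was not tested.

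**Figure D3:**
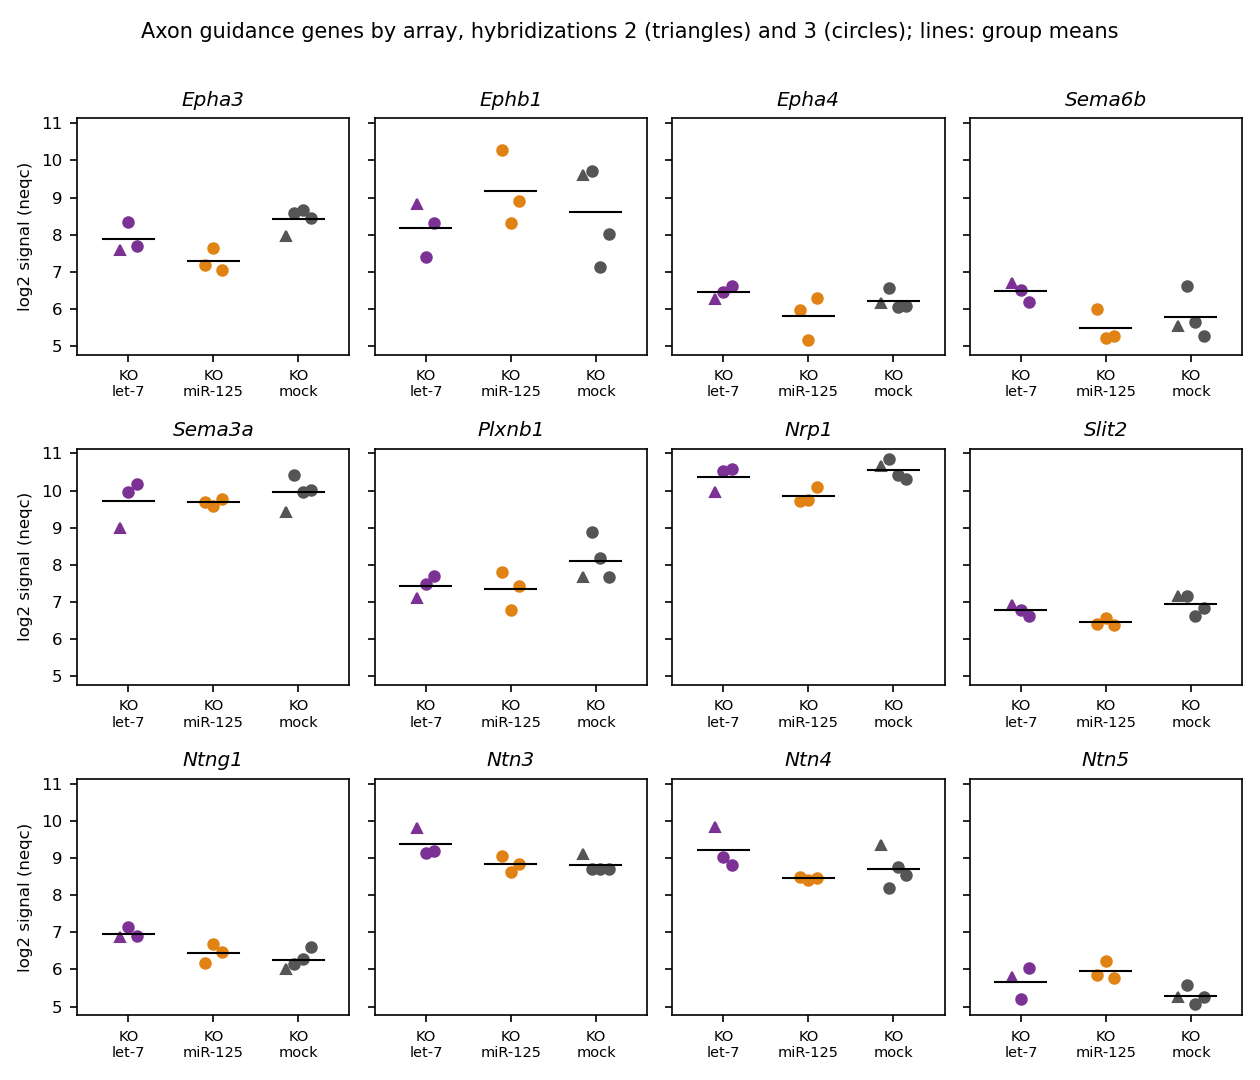
Log2 signal (vertical axis) of 12 axon guidance genes in KO GPCs given let-7, miR-125 or mock (horizontal axis); triangles are arrays of hybridization 2, circles of hybridization 3 and lines group means. Epha3 in miR-125 arrays, at 7.06 to 7.64, lies below all 4 mock arrays, and Ephb1 spreads from 7.12 to 9.71 within the mock group.

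When let-7 arrays were set directly against miR-125 arrays, 0 of 42 guidance genes tested passed, and 119 of all 9923 genes did (1.2%). At an unadjusted p under 0.05 there were 8 of 42 (19%), against 18.2% of all genes. Mock arrays counted towards detection here, so Plxna3, Epha8 and Plxnd1 were tested though each was detected on only 1 let-7 or miR-125 array. The replicate numbers of these groups name shared tamoxifen treatments, and with them as a block 2 guidance genes passed, both higher with let-7, beside 581 of all genes (5.86%). They were Sema6b, with a blocked log2 difference of 1.24 ± 0.15 (adjusted p = 0.0244), and Epha3, with 0.74 ± 0.13 (adjusted p = 0.0319). Without the block the differences were 0.98 ± 0.37 (adjusted p = 0.209) and 0.76 ± 0.21 (adjusted p = 0.118). Other, weaker probes of Epha3 differed by 0.30 and -0.11 without the block, the latter undetected on every let-7 and miR-125 array. Another Sema6b probe, undetected on every miR-125 array, differed by 0.47. Sema6b had 6.69, 6.52 and 6.20 in let-7 arrays against 6.01, 5.23 and 5.27 in miR-125 arrays, 2 of them below detection. Epha3 had 7.58, 8.34 and 7.70 in let-7 arrays against 7.18, 7.64 and 7.06 in miR-125 arrays, which overlap.

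The guidance genes that passed in the knockout were followed into the let-7 and miR-125 comparisons, which share no array with it. Of 9 guidance genes higher in the knockout and tested with let-7, 5 had a negative let-7 difference (55.6%), against 69% of all genes higher in the knockout. With miR-125 it was 6 of 9 (66.7%), against 65%. For genes lower in the knockout, 3 of 6 guidance genes had a positive let-7 difference (50%, against 71.5% of all genes) and 5 of 7 a positive miR-125 difference (71.4%, against 62.9%). The Draxin probe with the highest mean signal was detected on 1 of 3 let-7, 1 of 3 miR-125 and 1 of 4 mock arrays, all of replicate 1, at 6.34, 5.88 and 5.97, while a weaker probe was detected on 2 of 3 let-7 arrays and on 2 of the 3 mock arrays of that comparison. Plxnb3 stayed at 4.87 to 6.17 in let-7, 5.15 to 6.12 in miR-125 and 6.13 or less in mock arrays, and the groups overlapped.

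Genes that act downstream of guidance receptors changed in both directions as well. Of 62 such effectors 46 had a probe. In differentiation 11 of 34 tested were higher and 9 lower, where 28% and 27.2% of all genes were, with a median log2 difference of 0.12, against -0.01 for all genes. The highest were the collapsin response mediators Dpysl3 (2.91), Dpysl4 (2.75) and Dpysl5 (2.42), which carry semaphorin signals to microtubules. The lowest were Vav3 (-2.44), the Src family kinase Fyn (-2.35) and the Rac activator Dock1 (-1.39). In the knockout 14 of 33 were higher and 7 lower, where 28.3% and 26.6% of all genes were, with a median of 0.11, against 0.02 for all genes. Dpysl5 (2.30), Vav3 (1.58) and the Rac effector kinase Pak3 (1.42) led, and Crmp1 (-1.53), Dpysl4 (-1.19) and Fyn (-0.76) were lowest.

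Of 50 other guidance and adhesion molecules listed 47 had a probe. In differentiation 20 of 32 tested were higher and 6 lower, where 28% and 27.2% of all genes were, with a median of 0.51, against -0.01 for all genes. The chemokine receptor Cxcr4 (3.20), the adhesion molecule contactin-1, Cntn1 (2.52), and the cadherin Celsr3 (1.79) were highest, and Flrt2 (-1.42), Rtn4rl1 (-0.92) and the chemokine Cxcl12 (-0.50) lowest. In the knockout, which shares its controls, 6 of 28 were higher and 16 lower, where 28.3% and 26.6% of all genes were, with a median of -0.55, against 0.02 for all genes. Cntn6 (2.09), the Wnt ligand Wnt5a (2.05) and Rgmb, a ligand of neogenin (1.51), were highest, and the oligodendrocyte myelin glycoprotein Omg (-4.17), Ncam2 (-2.74) and Cntn1 (-2.68) lowest. No gene of either list passed in the microRNA comparisons.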

How the data were processed

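The deposited non-normalized table gives 25697 probes with an intensity and a detection p-value per array, per the file headers; its lowest intensities lie well above 0, as without background subtraction. The deposited normalized tables, 1 per comparison, served as an alternative on the log2 scale. Limma is named without a version in the submitters' processing notes. The 9 arrays of hybridization 1 and the 10 of hybridizations 2 and 3 were processed apart with neqc (limma 3.58.1, R 4.3.3), which corrects background by detection p-value, adds an offset of 16, normalizes quantiles and takes log2. The 24 sample entries are 19 arrays, since 5 were entered again. No column of per-sample values was left unmapped.

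A gene was tested where its probe had a detection p under 0.05 on at least 3 of the arrays compared. Limma's linear model with empirical Bayes moderation (two-sided) was fitted on the whole table of those arrays, with Benjamini-Hochberg adjustment over all genes and a threshold of 0.05. It was tested on simulated data. The let-7 comparison carried a hybridization term, and the direct contrast used the 10 arrays of hybridizations 2 and 3 with that term. Detection in the direct contrast was counted over all 10 arrays. Where every array of a group was below background, the fold is a lower bound. Every gene that passed is named, up to the 12 highest and 12 lowest of a comparison, with all array values for up to 4 each way; in the microRNA comparisons, where none passed, the highest and lowest are given, chosen after their values were seen. The members and lists were chosen with earlier results of these data known. Values of a gene's other probes are given without a test.

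Same-numbered samples correlated in their deviations from the group means by 0.560, 0.369 and 0.442 (miR-125) and 0.869, 0.653 and 0.650 (let-7). In the let-7 comparison both replicate 1 arrays are of hybridization 2, so its values include the hybridization and cannot show pairing by themselves. Differently numbered arrays of hybridization 3 correlated there by 0.348 and 0.344. The labels give the numbers as separate tamoxifen treatments, so a block for them was run as an alternative. The main fits carried no such block, and their p-values take no account of pairs. Same-numbered samples had -0.007, 0.187 and -0.075 in the differentiation comparison and 0.106, 0.237 and 0.083 in the knockout. The numbers were not taken as pairs there. Promoters are the first RefSeq window listed for a gene, cut to 250 bases before the start, and proteins were not used here. The alternatives were other normalizations, offsets, filters and probes, leaving out each array, the replicate block and the deposited normalized tables.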

Additional observations from a re-analysis of the deposited data

Results flagged for a closer look

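In the mock-treated knockout group, the 4 arrays were compared for each of 40 guidance genes, and in 2 of them 1 array lay far from the rest. Chance flags about 1 in 20 groups. Both were replicate 1 of hybridization 2. Ntn3 had a log2 signal of 9.12 there, against 8.70 to 8.72 in the other mock arrays. Sema6a, a ligand of A-type plexins, had 7.44 there, against 6.48 to 6.60. That array is also the only mock array of its hybridization, so the array and the hybridization cannot be told apart. Whether it holds the same RNA as the replicate 1 array of hybridization 3 is not stated.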

How the results depend on the processing

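Alternatives were run for each passing gene and for 6 genes in each microRNA contrast, and none of these changed sign. In differentiation 376 of 405 alternative values of the 23 passing genes kept their call and 29, over 8 genes, fell short of the threshold; in the knockout it was 272 of 287 of 18 genes, with 15 short over 6 genes. Scaling to the median after normexp, without quantiles, left 15 guidance genes in differentiation and 12 in the knockout, and 2878 and 1643 of all genes, against 5177 and 4995. In the knockout Plxnb3 ranged from -4.66 to -2.96 and the strongest Draxin probe from -5.17 to -3.08, with -1.10 and -0.24 on the others. Leaving out single arrays gave 17 to 23 genes in differentiation and 14 to 18 in the knockout, in part because genes detected on the 3 arrays of only 1 group (Epha3, Plxnd1 and Unc5c in differentiation, Draxin, Efnb2, Epha3, Ntn5 and Sema6b in the knockout) are then not tested. It gave 0 in the 3 microRNA contrasts. Calls were lost for Ephb4 without any differentiated array or undifferentiated replicate 2 (adjusted p = 0.0505 to 0.102, values -0.36 to -0.23), Unc5b without replicates 2 or 3 of either group (0.0809 to 0.116, -0.40 to -0.30), Slit2 without differentiated replicate 2 or undifferentiated replicates 1 or 2 (0.0528 to 0.0590, -0.80 to -0.64) and Efna4 without differentiated replicate 3 (0.0542, -0.50). In the knockout Efnb3 was lost without replicates 2 or 3 of either group (0.0794 to 0.140, 0.24 to 0.33).

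With the replicate number as a block, 24 guidance genes passed in differentiation (54.7% of all genes) and 20 in the knockout (56.5%). Unc5b in differentiation and Efnb3 in the knockout then did not pass. Efna5 and Efnb1 in differentiation, and Efna4, Slit2 and Sema7a in the knockout, passed with the block and not in the main fit. The deposited normalized table numbers replicates 1 and 3 of the undifferentiated arrays the other way round, and a block with those numbers, added after seeing the data, also gave 24. In the direct contrast the block gave 2, as reported. Leaving out mock replicate 1 of hybridization 3 was run without the block only, and gave 0, as did the main fit. The block changed no call in the let-7 or miR-125 comparison. The miR-125 count was 1, Epha3, under normexp with median scaling, without background correction and in the deposited normalized table, and 0 otherwise. Over all genes the counts ranged from 0 to 253 for let-7, 0 to 181 for miR-125 and 0 to 581 for the direct contrast, and the cause was not tested. Signal near background limits Sema6b, Ntn5, Efnb3, Unc5b and Robo2, and in the let-7 comparison also Plxnc1, Plxnd1 and Plxnb3.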
